A study of Rattus norvegicus with 30 samples.

Results

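Lung cells of wild-type rats carrying CD31, a surface protein of endothelial cells, were compared 3 weeks after Glenn surgery and after sham surgery, both on a control diet. The groups were chosen by the treatment label, which gives 5 Glenn and 5 sham libraries, 10 of the 30 libraries in the series. The other 20 libraries come from the same operations on diets with too little or an excess of vitamin A, and enter here only where the control diet is set against them. The labels name the lung CD31+ cells as the tissue, and say nothing of the animals' age or sex, of pooling, or of which vessels the cells came from. Nothing in them says that libraries of a group came from separate animals, so the p-values measure the spread between these libraries, which may be partly technical. The Y-linked gene Ddx3y was present in some libraries of each group and near absent in others, so a group's libraries did not all come from the same animal. How many animals stand behind each group is not given.

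In the Glenn operation, or superior cavopulmonary connection, the vein that drains the upper body is connected to an artery of the lung. The lung that it feeds then receives venous blood which has not come through the liver, with a less pulsatile flow. Pulmonary arteriovenous malformations, direct channels between small arteries and veins, can form in such lungs. The best known inherited form of these malformations arises from loss of either endoglin or ALK1, endothelial receptors that together bind BMP9, a ligand made in the liver. The receptors signal through SMAD proteins to target genes such as the Id genes.

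Total estimated counts were 34.9 to 77.6 M per library. Levels are given as CPM, counts scaled by TMM to a library total of 1 M, as mean ± SD over the 5 libraries of a group. A change is an adjusted p under 0.05 in edgeR's quasi-likelihood test over all genes, and log2 changes are Glenn minus sham. On the first principal component of the 10 libraries, which held 32.7% of the variance, sham libraries lay from -54.3 to -29.8 and Glenn libraries from 30.3 to 58.1, with no overlap. Glenn replicate 1 (50.9) and sham replicate 3 (47.8) stood apart on the second component (14.7% of the variance), with the others between -30.1 and 20.3. The major histocompatibility gene RT1-CE16, whose level splits the series, was above 100 CPM in 3 sham and 2 Glenn libraries, and 2 libraries of each group had the Y-linked gene Ddx3y above 10 CPM, so neither split falls along the surgery. Because RNA was taken from many cells at once, fewer cells of a type and less RNA per cell cannot be told apart.

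The operation was followed by a broad shift of the transcriptome. Of 16171 genes tested, 4023 (24.9%) changed, 1907 higher (11.8%) and 2116 lower (13.1%) after Glenn surgery. Most changes were small: 2178 of the 4023 were under 1.5-fold, 852 lay between 1.5 and 2-fold, and 993 (6.14% of genes tested) reached 2-fold. The large changes leaned upward, with 616 genes at least 2-fold higher (3.81%) against 377 lower (2.33%), and 87 against 38 at 8-fold or more. At least 2-fold, 123 genes rose and 54 fell under 1 CPM, and 284 and 120 at 1 to 10 CPM. The counts were 167 and 126 at 10 to 100 CPM, and turned to 39 and 66 at 100 to 1000 CPM. Among changes under 1.5-fold the lean was downward, 877 higher against 1301 lower. The small excess of lowered genes overall turned with DESeq2 (2219 higher, 2130 lower), with DESeq2's size factors (2042 and 1946), without Glenn replicate 4 (1957 and 1793) and without sham replicate 3 (1738 and 1654). At an unadjusted p under 0.05 the count was 5710 (35.3%). The 10 libraries gave no overlap between groups for 2780 genes (17.2%), 1258 higher (7.78%) and 1522 lower (9.41%).

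Lowered genes held more of the transcriptome than raised genes did in sham libraries. After TMM scaling, lowered genes together summed to 27.1 ± 1.26% of 1 M CPM in sham and 16.9 ± 1.18% in Glenn libraries (SD, n = 5 each). Raised genes summed to 12.3 ± 0.238% and 18.1 ± 1.12%. TMM scaling lets the genes of a library sum to more or less than 1 M, so these are not exact shares. On the same scale, the 377 genes lowered at least 2-fold summed to 7.31 ± 0.454% in sham and 2.57 ± 0.368% in Glenn libraries. The 616 raised at least 2-fold went from 1.07 ± 0.0334% to 2.93 ± 0.352%. Of the 79 genes averaging at least 1000 CPM, 29 fell and 13 rose, and 11 of those that fell did so at least 2-fold against 3 that rose. Calls were fewer at low levels, where precision was lower: 6.59% of genes under 1 CPM changed, with a median standard error of 0.69 on the log2 scale, against 28.9% of those at 10 to 100 CPM, with 0.10. The plot of change against level shows both features.

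**Figure D1:**
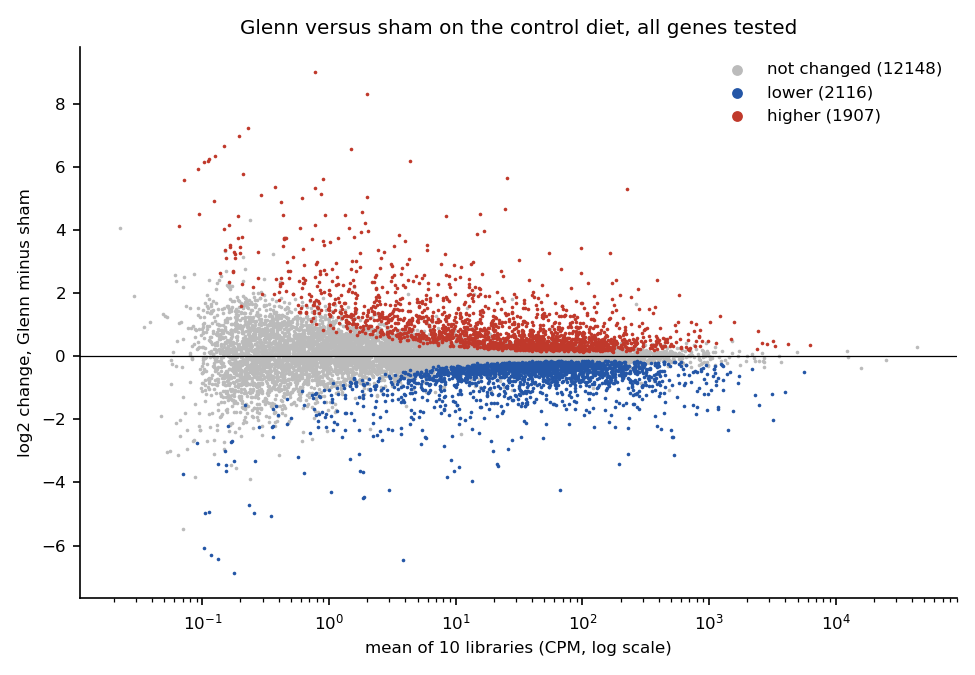
Log2 change after Glenn surgery on the control diet (Glenn minus sham, vertical axis) against the mean level in CPM of the 10 libraries (horizontal axis, log scale) for the 16171 genes tested, with the 1907 raised and 2116 lowered genes in colour. Raised genes reach the larger changes at low and middle levels, and lowered genes prevail among the 79 genes of at least 1000 CPM.

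The genes with the smallest adjusted p came from several functions. Raised genes of this kind were Vash1 (vasohibin 1, a secreted inhibitor of angiogenesis that removes tyrosine from tubulin), Smad1 (a transducer of BMP signals), Clic2 (of the intracellular chloride channel family), Rnd3 (a small GTPase that lowers contractility), Nid2 (nidogen 2, a basement membrane linker), Prnd (a prion-like protein), Adm (the vasodilator peptide adrenomedullin) and Slc41a1 (a magnesium transporter). Their log2 changes ran from 1.36 (Slc41a1) to 5.65 (Prnd), with no overlap between groups for any of the 8. Vash1 stood at 17, 17.8, 18.9, 15.9 and 14.3 CPM in the sham libraries. In the Glenn libraries it stood at 262, 119, 170, 192 and 154 CPM (log2 change 3.42, SE 0.17, edgeR adjusted p 3.12e-14). The lowest Glenn value was thus far above the highest sham value, and Prnd, which went from 0.999 ± 0.423 to 50.2 ± 11.6 CPM, was close to absent after sham surgery.

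The 8 lowered genes of smallest adjusted p were Hyal3 (a hyaluronidase), Wnt5b (a Wnt ligand), Abhd15 (an abhydrolase-domain protein), Rasgef1a (an exchange factor for Ras), Serpina1 (alpha-1-antitrypsin), its annotated relative Serpina1fl1, Mmp16 (a membrane-bound metalloprotease) and Pcdh1 (protocadherin 1). Hyal3 stood at 258, 255, 263, 262 and 268 CPM in sham libraries. Glenn libraries held 70.9, 83.1, 69.2, 69.9 and 69.1 CPM of it (log2 change -1.85, SE 0.08, edgeR adjusted p 1.67e-15), so neither group varied by much around its mean. Serpina1 went from 127 ± 29.4 to 6.68 ± 0.58 CPM (log2 change -4.25, SE 0.24). Reads that fit both Serpina1 and Serpina1fl1 are shared out by the estimate, so the split between them is uncertain.

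By size of change, raised genes with no overlap and a mean of at least 5 CPM over the 10 libraries were led by Prnd, Igfbp3 (a binding protein for insulin-like growth factors), Cacng3 (an auxiliary calcium channel subunit), Tacr1 (the substance P receptor), Nos2 (inducible nitric oxide synthase), Tfpi2 (a protease inhibitor), Rdh12 (a retinol dehydrogenase) and Slfn4 (a Schlafen protein). All 8 were low after sham surgery, from 0.731 CPM (Tacr1) to 11.2 CPM (Igfbp3). Nos2 had 2.62, 1.43, 1.92, 1.55 and 2.58 CPM in sham libraries. It had 31.2, 25.1, 30.8, 38.3 and 32.8 CPM in Glenn libraries (log2 change 3.97, SE 0.31). Its relative Nos3, the endothelial synthase, rose from 82.7 ± 10.4 to 127 ± 21.6 CPM (log2 change 0.61, SE 0.15, edgeR adjusted p 0.00268). Igfbp3 was uneven among Glenn libraries: Glenn replicate 1 had 1097 CPM and the other 4 Glenn libraries 202 to 310 CPM, against 10.7, 22.1, 7.29, 9.59 and 6.27 CPM after sham surgery. Its log2 change was 5.28, and 4.61 without Glenn replicate 1.

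By the same criteria, the lowered genes of the largest size were Serpina1, Abhd15, Kcnk2 (a stretch-gated potassium channel), Tubb4a (a beta-tubulin), Wnt5b, Glp1r (the receptor for glucagon-like peptide 1), Ntrk2 (the receptor for brain-derived neurotrophic factor) and Cd300lg (an endothelial mucin-like receptor). Glp1r stood at 424, 381, 430, 268 and 270 CPM after sham surgery. After Glenn surgery it stood at 33.8, 44.9, 44.2, 20 and 23.5 CPM (log2 change -3.41, SE 0.26, edgeR adjusted p 1.27e-10). Cd300lg went from 39 ± 14.7 to 3.63 ± 1.51 CPM and Kcnk2 from 17.8 ± 5.03 to 1.45 ± 0.892 CPM, in each case with no overlap.

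In absolute terms the largest gains in CPM were those of Fos (an immediate early transcription factor), Sparc (a collagen-binding matrix protein), Col4a1 (a basement membrane collagen), Ccl21 (a chemokine of lymphatic vessels), Zfp36 (an mRNA decay factor) and Actbl2. Actbl2 is a close copy of beta-actin and its estimate may hold actin reads, so it is uncertain. The largest losses were those of Plvap (the diaphragm protein of fenestrae and caveolae), Epas1 (the hypoxia factor HIF-2 alpha), Ace (angiotensin-converting enzyme), Thbd (thrombomodulin, an anticoagulant receptor), Tmem100 (a BMP9 target) and Selenop (a selenium carrier). Plvap went from 5109 ± 345 to 1246 ± 320 CPM, and Epas1 from 5468 ± 577 to 2497 ± 282 CPM. Neither showed an overlap between groups.

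Receptors and transducers of the BMP9 pathway changed in both directions. Of 18 receptor and SMAD genes tested, 6 fell and 5 rose (median log2 change 0.05, against -0.01 over all genes tested). The counts were 6 each way with an RT1-CE16 term, with RT1-CE16 and sex terms, and in the fit of the 10 control-diet libraries alone. They were 5 each way without Glenn replicate 3, Glenn replicate 4 or sham replicate 2. Endoglin (Eng), the co-receptor that presents BMP9, had 2261, 2684, 2730, 2231 and 2093 CPM in sham libraries. In Glenn libraries it had 882, 807, 631, 676 and 587 CPM (log2 change -1.74, SE 0.12, edgeR adjusted p 7.4e-12). ALK1 (Acvrl1), the signalling receptor, went from 1800 ± 142 to 564 ± 126 CPM (log2 change -1.67, SE 0.12), and Bmpr2, its partner, from 658 ± 94.7 to 242 ± 36.5 CPM (log2 change -1.44, SE 0.10). All 3 receptors were lower in every Glenn library than in any sham library. Smad9, a further BMP transducer, also fell (-0.73), whereas Smad1 stood at 77, 84.3, 76.1, 86.8 and 84.9 CPM after sham surgery. After Glenn surgery Smad1 stood at 331, 247, 281, 373 and 335 CPM (log2 change 1.94, SE 0.11). Smad4, the common partner of all SMAD signals, had 122 ± 6.08 CPM in sham and 121 ± 8.8 CPM in Glenn libraries (log2 change -0.01, SE 0.13, edgeR adjusted p 0.976). Tgfbr2, a receptor for TGF-beta, rose from 483 ± 22.9 to 700 ± 111 CPM (0.54).

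The targets of the pathway moved mostly one way: 10 of 17 fell and 2 rose (median -0.53). The inhibitory SMAD Smad6 had 947, 1031, 923, 916 and 915 CPM in sham libraries. It had 116, 147, 105, 86.8 and 87.2 CPM in Glenn libraries (log2 change -3.12, SE 0.19, edgeR adjusted p 1.09e-12), the largest fall of the list. Tmem100 went from 2338 ± 165 to 466 ± 156 CPM (-2.33), Smad7, the other inhibitory SMAD, from 127 ± 10.7 to 28.5 ± 7.04 CPM (-2.15), and Nog (noggin, a secreted BMP antagonist) from 4.22 ± 0.72 to 0.818 ± 0.236 CPM (-2.37). The Id genes, inhibitors of basic helix-loop-helix factors, fell to different degrees. Id1 stood at 241, 256, 206, 222 and 235 CPM in sham libraries. Glenn libraries held 64.4, 78.7, 76.5, 67.1 and 69.1 CPM of it (log2 change -1.71, SE 0.11), and Id3 fell from 393 ± 34 to 203 ± 14.9 CPM (-0.95). No Glenn library reached the lowest sham value of Id1. Lyve1 and Bmper rose (0.48 and 0.87), and 5 members did not pass, among them Gja5 (-0.32) and Hey1 (0.26). Gja5 passed as lower with limma voom, without Glenn replicate 1, and in the fit of RT1-CE16-high libraries alone. The receptor and target lists share Smad9. Without Glenn replicate 4, Bmper no longer passed.

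Of the 15 genes of these lists that fell, 12 had 1 promoter in RefSeq's table for GRCr8, which covers the bases just before the annotated start. The last 100 bases before the start are shown for 3 of those that hold a letter string tied to this pathway or a TATA box. Capitals mark GGCGCC, a GC-rich letter string bound by SMAD1 and SMAD5, or TATAAA, the TATA box, each searched on both strands.
Id1 (GRCr8, chr3:161671464-161671563, strand +): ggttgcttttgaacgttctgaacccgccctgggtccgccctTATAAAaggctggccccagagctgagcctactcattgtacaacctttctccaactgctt
Nog (GRCr8, chr10:74627502-74627601, strand -): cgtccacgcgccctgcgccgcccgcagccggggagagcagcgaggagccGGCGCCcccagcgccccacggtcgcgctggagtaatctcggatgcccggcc
Smad9 (GRCr8, chr2:141106568-141106667, strand +): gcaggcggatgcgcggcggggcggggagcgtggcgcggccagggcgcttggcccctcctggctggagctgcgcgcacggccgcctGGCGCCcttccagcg
GGCGCC began 51 bases before the start of Nog and 15 before that of Smad9, and TATAAA 59 bases before that of Id1. In all, 4 of the 12 stretches held GGCGCC and 1 held TATAAA. Those with GGCGCC that are not shown were Smad7 (96 and 36 bases before the start) and Acvr1b (42 bases before). Among all 33469 listed promoters, 4.61% hold GGCGCC and 5.78% TATAAA in the same 100 bases. The window of Eng and that of Bmpr2 held neither, and Acvrl1, Smad6 and Tmem100 were not searched.

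**Figure D2:**
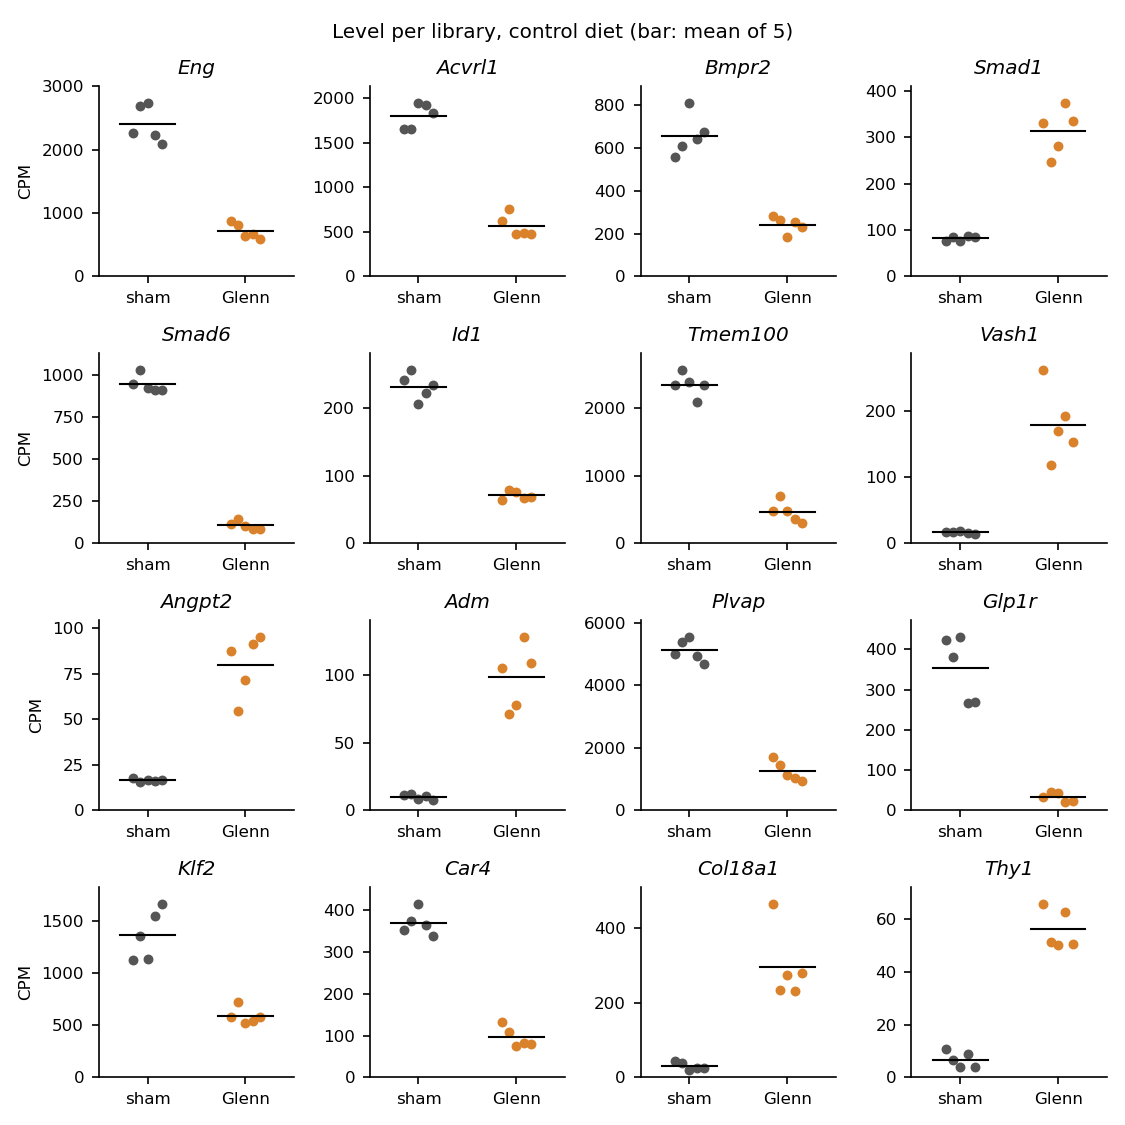
Level of 16 genes in each of the 5 sham and 5 Glenn libraries (points, CPM, axes from 0) with the group mean (bar). Eng, Acvrl1, Smad6, Tmem100, Id1, Plvap and Glp1r lie lower in all Glenn libraries, and Smad1, Vash1, Angpt2, Adm and Col18a1 higher.

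Growth signals to the endothelium changed in part. Angpt2, the antagonist of the Tie2 receptor, rose from 16.6 ± 0.918 to 79.8 ± 16.9 CPM (log2 change 2.27, SE 0.15), while Tek, the Tie2 receptor itself, fell from 1307 ± 194 to 902 ± 103 CPM (-0.53). Of 10 VEGF ligands and receptors, 5 fell and 3 rose (median -0.11). Vegfa, which lung epithelium also makes, had 1113, 1406, 1215, 1179 and 1142 CPM in sham libraries. In Glenn libraries it had 484, 296, 379, 415 and 414 CPM (log2 change -1.61, SE 0.11, edgeR adjusted p 3.88e-12). Its receptors Kdr and Nrp1 fell (-0.85 and -0.81), and Pgf (placental growth factor), Flt4 and Nrp2 rose (1.73, 0.75 and 0.57). The ligand of the main receptor and that receptor were thus lower together.

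Of 21 genes listed here for sprouting tip cells, 14 rose and 3 fell (median 0.79). The list was chosen with earlier results of these data known and holds Vash1, an inhibitor of angiogenesis. Besides Vash1, Adm, Nid2 and Igfbp3, Cxcr4, the receptor for the chemokine CXCL12, rose from 105 ± 24.8 to 384 ± 58.1 CPM (1.87) and Apln, the peptide apelin, from 177 ± 40 to 495 ± 101 CPM (1.49). Esm1, a proteoglycan of sprouting vessels, rose from 56.7 ± 25.4 to 283 ± 96.6 CPM (log2 change 2.32, SE 0.30). The 3 members that fell were Plvap, Ednrb (endothelin receptor B) and Aplnr (the apelin receptor), and all 3 also stand on the capillary lists described next.

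Markers of the lung's capillaries were lower. Of 13 genes that mark general capillary cells, 10 fell and 0 rose (median -0.61). The list summed to 10494 to 13114 CPM in sham and 4215 to 5967 CPM in Glenn libraries. Besides Plvap and Glp1r, Lpl (lipoprotein lipase) fell from 590 ± 121 to 158 ± 27.1 CPM (-1.90), Tbx3 (a T-box factor) from 267 ± 25.2 to 98.7 ± 23.2 CPM (-1.44) and Kit, a receptor kinase, from 538 ± 97.2 to 311 ± 32 CPM (-0.79). Gpihbp1, which anchors lipoprotein lipase, did not pass (133 ± 32.8 CPM in sham and 113 ± 23.2 CPM in Glenn libraries). Of 14 markers of aerocytes, the thin gas-exchange capillary cells, 8 fell and 3 rose (median -0.76). Car4, a membrane carbonic anhydrase that defines them, had 353, 374, 414, 365 and 338 CPM after sham surgery. After Glenn surgery it had 132, 108, 76.2, 82.6 and 80.6 CPM (log2 change -1.94, SE 0.16, edgeR adjusted p 4.17e-10). Prx (periaxin) and Tbx2 fell with it (-1.68 and -1.71), and Apln and Chst1 rose (1.49 and 0.97).

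General endothelial genes fell too, 9 of 14 with 3 higher (median -0.48), and they summed to 14845 to 17558 CPM in sham and 8822 to 11955 CPM in Glenn libraries. The 3 that rose were Robo4, Erg (an ETS factor that maintains endothelial identity) and Emcn. Pecam1, the gene of CD31 itself, stood at 1220 ± 170 CPM in sham and 994 ± 127 CPM in Glenn libraries (log2 change -0.30, SE 0.12, edgeR adjusted p 0.0812). It passed as lower with limma voom, without Glenn replicate 1, and in the fit of RT1-CE16-high libraries alone. VE-cadherin (Cdh5) fell from 2501 ± 246 to 1876 ± 310 CPM (-0.41). Both genes, which define endothelial cells, were thus abundant in both groups.

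Vessel-type markers did not move as one. Of 13 venous markers 8 fell and 3 rose (median -0.66), led by Amigo2, a cell adhesion protein, which went from 407 ± 95.3 to 47.4 ± 14.3 CPM (log2 change -3.10, SE 0.24), Bst1 (-1.85) and Slc6a2, the noradrenaline transporter (-1.79). Vwf (von Willebrand factor) fell from 1741 ± 242 to 825 ± 280 CPM (-1.08). Of 14 arterial markers 5 rose and 4 fell (median 0.22), against 4 and 5 without Glenn replicate 1, 4 and 4 without Glenn replicate 2 or sham replicate 1 or 4, 5 and 5 with limma voom, and 3 and 5 among RT1-CE16-high and 3 and 3 among RT1-CE16-low libraries: Dkk2 (a Wnt inhibitor) and Fbln5 (fibulin 5) rose (2.13 and 1.22), and Sema3g, Cxcl12 and Efnb2 fell (-1.78, -1.34 and -0.86). The Notch pathway, which sets arterial fate, had 4 higher and 4 lower of 25 (median 0.08), and 2 higher and 6 lower without Glenn replicate 2. Lymphatic markers rose in 7 of 10 with 0 lower (median 0.82). Thy1, a surface glycoprotein, had 10.8, 6.61, 3.86, 8.84 and 3.83 CPM in sham and 65.6, 51.2, 50.3, 62.8 and 50.7 CPM in Glenn libraries (log2 change 3.04, SE 0.31). Ccl21 rose from 721 ± 61.1 to 1741 ± 260 CPM (1.27) and Prox1, the factor that defines lymphatic endothelium, from 5.05 ± 1.66 to 11.5 ± 1.66 CPM (1.18).

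**Figure D3:**
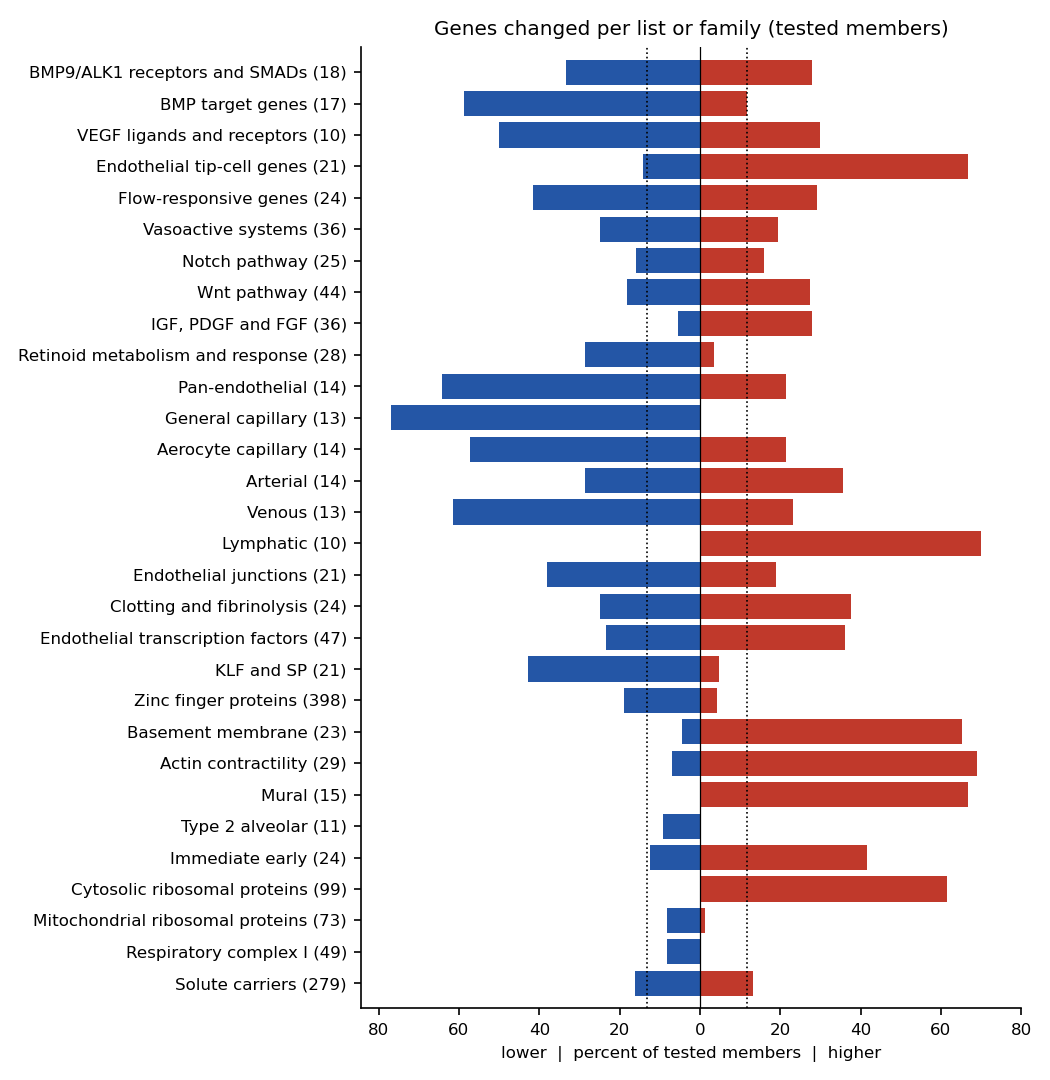
Share of the tested members of 30 gene lists and families that rose (right) and fell (left) after Glenn surgery on the control diet, in percent, with the number tested; dotted lines mark 11.8% higher and 13.1% lower over all 16171 genes tested. Tip-cell, lymphatic, mural, basement membrane, actin and ribosomal protein genes reach far to the right, and general capillary, aerocyte, pan-endothelial, venous and BMP target genes far to the left.

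Genes that respond to blood flow fell more often than they rose, 10 against 7 of 24 (median -0.16), but 5 moved each way among RT1-CE16-low libraries alone. Klf2, the transcription factor most closely tied to laminar shear, had 1125, 1355, 1134, 1546 and 1662 CPM in sham libraries. It had 578, 723, 526, 540 and 579 CPM in Glenn libraries (log2 change -1.21, SE 0.13, edgeR adjusted p 4.9e-08). Its target Thbd fell from 3723 ± 419 to 1264 ± 320 CPM (-1.56), Klf4 from 194 ± 33.9 to 113 ± 15.2 CPM (-0.79) and Piezo2, a stretch-gated channel, from 63.3 ± 10.7 to 28.8 ± 6.76 CPM (-1.14), with no overlap for any of them. Trpv4, a calcium channel, and Klf6 rose (1.36 and 0.62). Nos3, often counted with these genes, is given above.

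Several receptors of the hormone and peptide systems that set vessel tone fell. Of 36 tested genes, 9 fell and 7 rose (median 0.08), against 8 each way with an RT1-CE16 term and with RT1-CE16 and sex terms. Adm rose from 10.1 ± 2.04 to 98.1 ± 23.3 CPM (3.28), while its receptor Calcrl fell from 1237 ± 206 to 350 ± 58.6 CPM (-1.82) and the receptor partner Ramp2 from 1131 ± 57.9 to 686 ± 67.7 CPM (-0.72). The ligand and its receptor thus moved in opposite directions. Ace fell from 4398 ± 479 to 1920 ± 273 CPM (-1.20), Ednrb from 568 ± 112 to 253 ± 49.7 CPM (-1.17) and Npr1 (the natriuretic peptide receptor) from 341 ± 16.2 to 194 ± 21.8 CPM (-0.81). Ptgs2, the inducible cyclooxygenase, rose (1.09).

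Genes of clotting and of the vessel surface changed in both directions. Of 24 clotting genes 9 rose and 6 fell (median 0.03), against 6 each way among RT1-CE16-high libraries alone. F2r and F2rl3, thrombin receptors, rose (1.29 and 1.81) with Tfpi2, and Thbd, Tfpi (tissue factor pathway inhibitor) and Vwf fell (-1.56, -1.07 and -1.08). Of 13 genes of caveolae and their diaphragms 5 fell and 0 rose (median 0.07), but Cav1, the main caveolar coat protein, did not pass (2142 ± 240 CPM in sham and 2244 ± 167 CPM in Glenn libraries). Of 21 junction genes 8 fell and 4 rose (median -0.07), with Esam (-0.91), Jam2 (-0.86) and Cldn5 (claudin 5, -0.49) lower and Nectin2 (0.74) higher. Gja1 (connexin 43) rose from 201 ± 25.6 to 516 ± 117 CPM (1.36), and Gja4 (connexin 37) fell (-0.79). Of the leukocyte adhesion genes, Icam2 and Podxl fell (-0.88 and -0.93) and Cd34 rose from 3 ± 0.504 to 14.7 ± 2.94 CPM (2.29).

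Transcription factors of the endothelium changed widely, 17 higher and 11 lower of 47 (median 0.24). Among RT1-CE16-high libraries alone 6 were higher and 10 lower, and among RT1-CE16-low ones 8 and 8. Higher were Bcl6b, Zeb1 and Hif1a (1.46, 0.67 and 0.44) besides Erg (0.60). Lower were Epas1, Gata2, Foxf1 (a lung mesenchyme and capillary factor) and Tbx3 (-1.13, -1.06, -0.99 and -1.44). Hif1a and Epas1, both alpha subunits of hypoxia-inducible factors, thus went opposite ways. Among whole families of factors, KLF and SP genes fell in 9 of 21 and rose in 1, Klf6 (median -0.18). Zinc finger proteins named Zfp, Znf or Zbtb fell in 75 of 398 (18.8%) and rose in 17 (4.27%), against 13.1% and 11.8% of all genes tested. Their median was -0.15, and 58 of the 75 were lowered by under 1.5-fold. Nuclear receptors fell in 11 of 40 and rose in 5 (median -0.14). Homeobox genes rose in 8 of 36 and fell in 3 (median 0.22), Hoxa5, a lung patterning gene, among the lower ones (from 86.9 ± 2.04 to 38.3 ± 7.23 CPM, -1.18).

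Signals between cells other than BMP and VEGF held some of the strongest single changes. Wnt genes rose in 12 of 44 and fell in 8 (median 0.14): Wnt4 and Dkk2 rose (1.52 and 2.13), and Wif1 (a secreted Wnt inhibitor) and Axin2 (a Wnt feedback target) fell with Wnt5b (-2.30 and -1.12). In the guidance families, Ephb1 rose from 3.13 ± 0.697 to 23.4 ± 9.08 CPM (2.90), and its relative Ephb4, the venous receptor, and Efnb2 fell (-0.75 and -0.86). Sema6b and Sema3a rose (1.96 and 1.45) and Sema3c and Sema3g fell (-1.29 and -1.78). Growth factor genes of the IGF, PDGF and FGF families rose in 10 of 36 and fell in 2 (median 0.29). Igfbp4 had 68.5, 54.8, 72.4, 48.4 and 46.1 CPM in sham and 547, 223, 258, 253 and 260 CPM in Glenn libraries (log2 change 2.41, SE 0.24), and Nrg1 (neuregulin 1) and Hbegf rose (2.27 and 1.23). S1pr3, a receptor for sphingosine-1-phosphate, rose (1.56), and S1pr1, the abundant one, did not pass (846 ± 78.4 CPM in sham and 938 ± 136 CPM in Glenn libraries).

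Retinoid genes, which the diets of the series address, fell in 8 of 28 and rose in 1 on the control diet (median -0.17). Cyp26b1, which breaks down retinoic acid, fell from 83.5 ± 12.9 to 19.1 ± 15.2 CPM (log2 change -2.13, SE 0.36), and Dhrs3, a retinaldehyde reductase, from 149 ± 8.24 to 78.3 ± 8.64 CPM (-0.93). The receptor Rarg fell (-0.72), and Crabp2, a binding protein at a low level, rose (1.53). Rdh12, a retinol dehydrogenase that is not on this list, rose from 0.954 ± 0.243 to 10.8 ± 3.2 CPM (3.51).

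Basement membrane genes rose together. Of 23 tested, 15 rose and 1 fell (median 0.70), and the list summed to 4863 to 5718 CPM in sham and 7328 to 13178 CPM in Glenn libraries. Col18a1, the collagen that yields endostatin, had 42.8, 39.3, 20.6, 26.1 and 24.7 CPM in sham libraries. In Glenn libraries it had 464, 233, 275, 231 and 281 CPM (log2 change 3.27, SE 0.27, edgeR adjusted p 8.38e-10). Col4a1 rose from 1011 ± 186 to 2131 ± 596 CPM (1.08), Lama4 and Lamc1, laminin chains of vessels, from 99.1 ± 12.5 to 223 ± 32.2 and 159 ± 3.49 to 323 ± 81.5 CPM (1.17 and 1.02), and Hspg2 (perlecan) by 2.02. Of the 15, 3 also stand on the tip-cell list and 0 on the mural or fibroblast lists. Collagens as a family rose in 12 of 40 and fell in 2 (median 0.38), but the fibrillar collagens Col1a1, Col1a2 and Col3a1 did not pass (0.42, 0.17 and 0.00). Metalloproteases split, with Mmp2 and Mmp14 higher (1.15 and 0.88) and Mmp16, Mmp28 and Mmp15 lower (-1.53, -1.36 and -0.46). The enzymes that degrade hyaluronan, Hyal1, Hyal2 and Hyal3, all fell (-1.23, -1.56 and -1.85), and the synthase Has3 rose from 0.356 ± 0.265 to 2.93 ± 1.07 CPM (3.00).

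Genes of the contractile cytoskeleton rose in 20 of 29, with 2 lower (median 0.38). Examples are Flna (filamin A), which crosslinks actin, from 227 ± 11.1 to 418 ± 75.6 CPM (0.88), Vim (vimentin), from 358 ± 15.9 to 712 ± 63.9 CPM (0.99), and Rhoc, a small GTPase, from 45.2 ± 3.77 to 82.4 ± 7.12 CPM (0.87). Markers of mural cells, the smooth muscle cells and pericytes around vessels, rose in 10 of 15 with 0 lower (median 1.07) and summed to 311 to 449 CPM in sham and 642 to 979 CPM in Glenn libraries, with no overlap. Tagln, a smooth muscle actin binder, had 64.8, 46.4, 37.2, 45.1 and 38.3 CPM in sham and 109, 146, 188, 116 and 183 CPM in Glenn libraries (log2 change 1.68, SE 0.25). Myh11, Acta2 and Des rose with it (1.70, 1.59 and 1.28), while Pdgfrb and Rgs5, which mark pericytes, did not pass (32.2 ± 6.3 CPM in sham and 44.3 ± 7.23 CPM in Glenn libraries for Pdgfrb and 51.9 ± 12.5 CPM in sham and 53.9 ± 12.7 CPM in Glenn libraries for Rgs5). Pdgfrb passed when only the 10 control-diet libraries were fitted. Of the 20 raised actin genes, 3 are on the mural list. The part of mural RNA in the rise of the other 17 was not tested.

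Most markers of other cell types in the sort did not change, which also held for all genes tested, of which 24.9% changed. Outside the mural list, the share changed ran from 0% of mesothelial to 46.2% of type 1 alveolar markers. Transcripts of type 2 alveolar cells were abundant and summed to 53232 to 90468 CPM in sham and 41347 to 80348 CPM in Glenn libraries, with the ranges overlapping. Of 11 such markers 1 changed, Il33 (the cytokine interleukin 33, -1.06), and Sftpc did not pass (26118 ± 6405 CPM in sham and 23890 ± 7357 CPM in Glenn libraries). Type 1 alveolar markers rose in 5 of 13, Ager among them (0.80), and 1, Vegfa, fell (median 0.55). Fibroblast markers rose in 3 of 15, airway markers in 1 of 15 with 1 lower, and mesothelial markers in 0 of 7 with 0 lower. Lymphocyte genes were low: 14 tested markers summed to 6.15 to 49.1 CPM in sham and 5.42 to 19.2 CPM in Glenn libraries with 0 changed in edgeR (2 lower without Glenn replicate 4). At an unadjusted p under 0.05 edgeR gave 3 of these 14 and 0 of the 7 mesothelial markers, and DESeq2 and limma voom called 0 of either. Ptprc, the pan-leukocyte surface protein CD45, stood at 5.36 ± 7.6 CPM in sham and 3.15 ± 3.12 CPM in Glenn libraries (-0.76, edgeR adjusted p 0.478). Of 9 pan-leukocyte genes 2 fell, Srgn (serglycin, a granule proteoglycan, from 375 ± 63.6 to 131 ± 27.6 CPM, -1.52) and Cd48 (an immune surface protein, from 614 ± 37.5 to 360 ± 34 CPM, -0.77). The list summed to 997 to 1281 CPM in sham and 590 to 723 CPM in Glenn libraries, most of it from Cd48, Srgn and Lcp1, while Ptprc and Cd53, which define leukocytes, were under 10 CPM on average in both groups. Of 16 macrophage and monocyte markers 2 rose and 2 fell. The plot of summed markers shows these levels by library. What these cells contribute to the endothelial results was not tested.

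**Figure D4:**
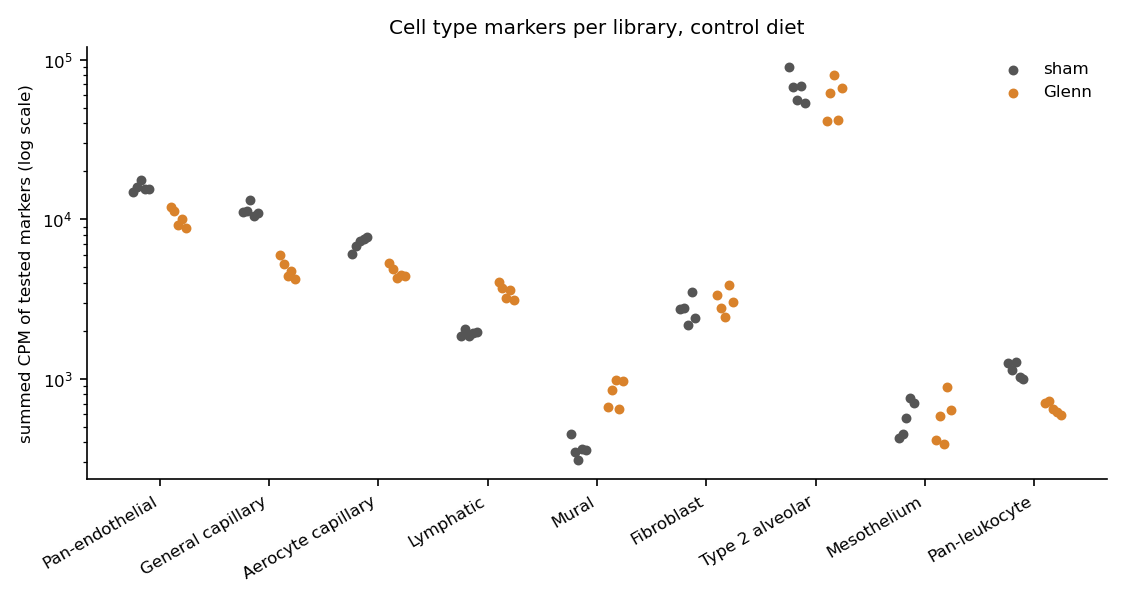
Summed CPM of the tested markers of 9 cell types in each of the 10 libraries (log scale), sham and Glenn on the control diet. General capillary and aerocyte sums are lower and mural and lymphatic sums higher in all 5 Glenn libraries, pan-endothelial and pan-leukocyte sums are lower there too, and type 2 alveolar, fibroblast and mesothelial sums overlap.

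Protein synthesis genes moved by small and even steps. Of 99 cytosolic ribosomal protein genes, 61 rose and 0 fell (61.6% against 11.8% of all genes; median 0.37), and 59 of the 61 were raised by under 1.5-fold. Rpl3, a large-subunit protein, had 253, 217, 210, 225 and 196 CPM in sham and 319, 324, 333, 266 and 309 CPM in Glenn libraries (log2 change 0.49, SE 0.08, edgeR adjusted p 1.71e-05). Near-identical copies within this family can share reads, so the estimate of a single member is uncertain. Translation factors rose in 17 of 69 and fell in 3 (median 0.08), with Eef2 (0.43) and Eef1g (0.46) among the higher. Of 73 mitochondrial ribosomal proteins 1 rose and 6 fell (8.22%, below the 13.1% of all genes; median -0.04).

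**Figure D5:**
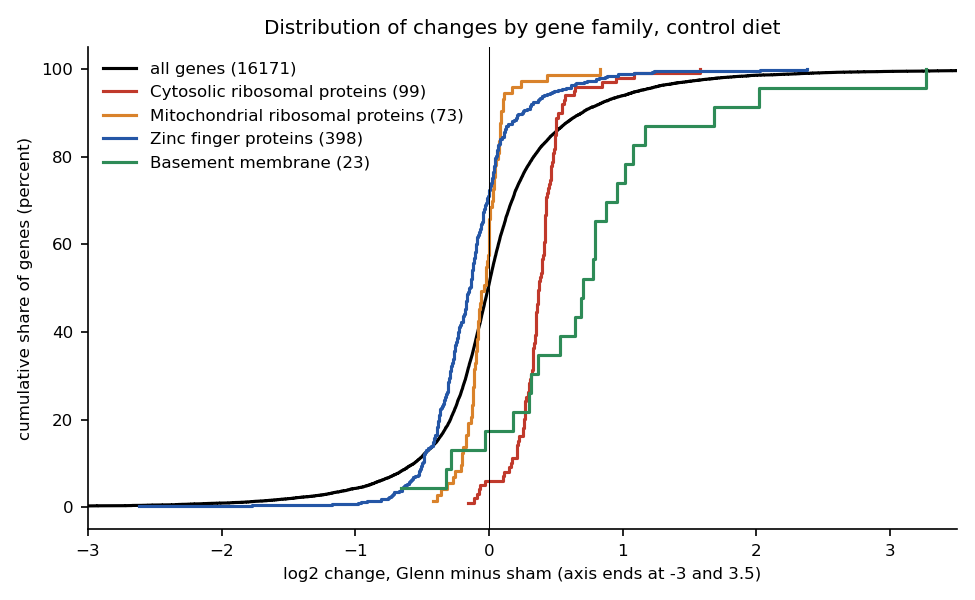
Cumulative share of genes (percent) by log2 change, Glenn minus sham on the control diet, for all 16171 genes tested, cytosolic ribosomal proteins (99), mitochondrial ribosomal proteins (73), zinc finger proteins (398) and basement membrane genes (23). The ribosomal protein curve is steep and shifted right (median 0.37), the zinc finger curve is shifted slightly left (median -0.15), and the basement membrane curve is wide (median 0.70).

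Classes of energy and lipid metabolism differed in their calls, where 24.9% of all genes tested had one. Glycolysis genes, with 29.4% called, lay close to that share. All 13 mitochondrially encoded genes and all 24 cholesterol synthesis genes tested were without a call, of 49 complex I genes 4 fell and 0 rose, and of 46 proteasome genes 2 rose and 3 fell. At an unadjusted p under 0.05 edgeR gave 0 of the 13 and 0 of the 24, and with an adjusted p under 0.05 DESeq2 gave 0 and 0 and limma voom 0 and 0. Without sham replicate 1, 1 cholesterol synthesis gene rose. Fatty acid synthesis fell in 5 of 18, led by the desaturase Fads1 (from 286 ± 30.3 to 103 ± 25.1 CPM, -1.47), and fatty acid oxidation in 5 of 24, Hadh among them (-0.40), with 0 higher in either (27.8% and 20.8% lower, against 13.1% of all genes). Citrate cycle genes fell in 6 of 24 (25%) and rose in 2, but without sham replicate 3 in 2 each way, and 0 passed among RT1-CE16-low libraries. In glycolysis, Slc2a3, a high-affinity glucose transporter, rose from 1.77 ± 0.211 to 13.5 ± 5.42 CPM (2.93), and of 17 genes 4 rose and 1 fell (median 0.18). Genes of the hypoxia response rose in 6 of 20 and fell in 2 (median 0.01): Adm, Pfkfb3 and Ndrg1 rose (3.28, 1.70 and 1.31), and Vegfa fell.

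Cell cycle, stress and immune classes differed in their calls, from 2 of 25 mitosis genes (8%) to 13 of 24 immediate early genes (54.2%). Over all genes tested the share was 24.9%. Replication (25.9%), heat shock (29.4%), unfolded protein response (20%), interferon-stimulated (25.8%) and antigen presentation genes (18.2%) lay nearer to it. Of 25 mitosis genes 2 rose, Mki67 (from 5.82 ± 2.7 to 10.5 ± 5.68 CPM, 0.85) and Anln (0.73), at low levels (median of the list 0.62). The call of Mki67 was lost without Glenn replicate 1 (0.46) and without sham replicate 1, 4 or 5, and that of Anln without Glenn replicate 1 (0.46), 2 or 3 and without sham replicate 2, 4 or 5. Of 27 replication genes 6 rose and 1 fell. Immediate early genes rose in 10 of 24 and fell in 3 (median 0.27): Myc and Fosl2 rose (1.18 and 1.29), Fos rose from 2688 ± 369 to 3724 ± 166 CPM (0.47), and Jun, at 3959 ± 382 CPM in sham and 3460 ± 513 CPM in Glenn libraries, did not pass. Heat shock genes rose in 3 of 17 and fell in 2, and unfolded protein response genes rose in 2 of 25 and fell in 3. Interferon-stimulated genes split 4 higher and 4 lower of 31 (median -0.30). That split was 3 and 8 without Glenn replicate 2, 3 and 6 without sham replicate 4, and 2 and 4 without sham replicate 5. With an RT1-CE16 term it was 2 higher and 10 lower, with RT1-CE16 and sex terms 2 and 11, and with the replicate block 5 and 9, so the even split does not hold. Of 22 antigen presentation genes 4 fell and 0 rose. Among cytokines, Il1a fell from 56.5 ± 10.9 to 9.59 ± 3.87 CPM (-2.55) and Il6r, the interleukin 6 receptor, from 53.2 ± 8.41 to 17.9 ± 2.36 CPM (-1.57), while Ccl24 and Ccl2 rose (2.43 and 1.39).

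Membrane transport and second messenger families held large changes in a few members. Slc29a1, the equilibrative nucleoside transporter, had 812, 934, 1013, 921 and 802 CPM in sham libraries. It had 206, 181, 119, 117 and 136 CPM in Glenn libraries (log2 change -2.56, SE 0.17, edgeR adjusted p 5.04e-12), and solute carriers as a family fell in 45 of 279 (16.1%) and rose in 37 (13.3%), close to the shares of all genes (median -0.03). Without sham replicate 3 the family had 36 each way, without sham replicate 4 38 each way, and among RT1-CE16-high libraries 31 higher and 28 lower. The drug efflux pumps Abcb1a and Abcb1b fell (-2.03 and -2.93); as close copies they share reads. Potassium channels rose in 16 of 64 (25%) and fell in 7 (10.9%), against 11.8% and 13.1% of all genes tested (median 0.25). Kcnj2 and Kcna3 were higher (1.69 and 2.51) and Kcnk2 lower (-3.62). Scn7a, a sodium channel, fell from 324 ± 66.8 to 117 ± 20.3 CPM (-1.47). Adhesion G protein-coupled receptors fell in 8 of 21 (38.1%) and rose in 2 (9.52%, median -0.32). Adgre5 (CD97) fell from 1756 ± 297 to 579 ± 118 CPM (-1.60). Tetraspanins fell in 6 of 26 (23.1%) and rose in 4 (15.4%), and the abundant Tspan7 and Cd9 were lower (-1.23 and -0.86). Phosphodiesterases fell in 6 of 21 (28.6%) and rose in 3 (14.3%), Pde2a higher (1.26) and Pde9a lower (-1.44). Among regulators of G protein signalling, Rgs16 and Rgs4 rose (2.41 and 1.89) and Rgs12 fell (-1.17). Calcium-binding annexins and S100 proteins rose in 9 of 21 (42.9%, median 0.32). They fell in 1 (4.76%), Anxa3, from 945 ± 75.8 to 315 ± 47 CPM (-1.58).

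The same operation on the other 2 diets gave calls of a similar number, 4423 genes (27.4%) with the deficient diet and 3549 (21.9%) with the excess diet. These comparisons use other libraries but share the fit and its spread. On the excess diet every sham library had RT1-CE16 under 100 CPM and belonged to 1 series of library names. Glenn replicates 3, 4 and 5 on that diet were above 100 CPM and belonged to the other series. The main fit has a term for the series but none for RT1-CE16. Values with the excess diet thus cannot be fully told apart from the series and RT1-CE16 level. Of the 4023 genes changed on the control diet, 3968 (98.6%) had a log2 change of the same sign with the deficient diet, 3866 (96.1%) did so with the excess diet, 2185 (54.3%) changed in the same direction on all 3 diets, which is 49.4% of the calls with the deficient and 61.6% of those with the excess diet, and 845 (21%) passed on neither. Passing on one diet alone is no sign of a difference between diets. The test of the difference itself, the Glenn effect on the control diet minus its mean on the other 2 diets, called 1 gene of 16171 (0.00618%), and 1089 (6.73%) had an unadjusted p under 0.05. That gene was Rftn1 (raftlin, a lipid raft protein), with 39.7, 37.2, 40.7, 42.2 and 44.1 CPM in sham and 47.6, 39.5, 33.2, 41.1 and 39.3 CPM in Glenn libraries on the control diet. Its log2 change was -0.02 with the control, 0.35 with the deficient and 0.82 with the excess diet (difference -0.61, SE 0.10, edgeR adjusted p 0.0321). The next 4 genes by p were Rassf4, Serpina1fl1, Chn2 and Gja5 (differences 1.20, -2.27, -0.64 and -1.07, edgeR adjusted p 0.08 to 0.116), and did not pass. Gja5, connexin 40 of arteries, had log2 changes of -0.32, 0.54 and 0.97 on the control, deficient and excess diets. DESeq2 called 14 genes, limma voom 5. Without Glenn replicate 1 edgeR called 16 genes, without sham replicate 2 it called 1, and without any other single library 0.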

How the data were processed

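RNA from rat lung CD31+ cells was purified with a PureLink kit and made into libraries with the SMART-Seq Ultra Low kit, per the labels' protocols. The submitters' processing notes name FastQC, Trim Galore, Picard, STAR and Salmon and the builds mRatBN7.2 and rn7. Their versions, settings and strand handling are not given in the sources used here. The values are estimated counts per gene that the authors deposited as one table of 30562 genes and 30 libraries; 13.6% were not whole and were rounded here.

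Genes passing filterByExpr (minimum count 10, minimum total 15; 16171 genes) were scaled by TMM and fitted with edgeR 4.0.16 in R 4.3.3 to all 30 libraries, with 6 group means and a term for the 2 series of library names. Pairs of replicates correlated at 0.981 to 0.993 (Spearman) and differed by more than counting noise. Each library was counted as 1 sample, though such differences do not show that libraries came from separate animals. Quasi-likelihood tests were adjusted by Benjamini-Hochberg. Standard errors are the log2 change divided by the root of the F statistic. Alternatives were DESeq2 1.42.0, limma 3.58.1 voom, other scaling, filter and terms, subsets of libraries and leaving out each control-diet library. edgeR's newer dispersion method was an alternative added after seeing the data. The scripts were tested on simulated data with 100 genes changed 1.5-fold and 100 changed 2-fold. Of these edgeR recovered 51 and 62, with 2 false calls, and limma voom 50 and 60, with 2. DESeq2 recovered 59 and 65, with 25 false calls. Far more genes were called in the data (4023), which makes the adjusted threshold less strict there. The simulated recovery is thus not the power of the comparison itself. A gene that did not pass may still have changed.

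The members and gene lists were chosen with earlier results of these data known. Genes were named by rule: per direction the 8 smallest adjusted p, the 8 largest changes with no overlap and at least 5 CPM, the 6 largest CPM differences, up to 4 called members per list with up to 3 abundant uncalled ones, the markers, 5 genes of the diet test, and 15 genes named in an earlier account. Esm1, Hspg2, Id3, Nos3, Smad7 and Smad9 fall outside the rule and were chosen after their values were seen.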

Additional observations from a re-analysis of the deposited data

Results flagged for a closer look

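In each group of 5 libraries, the gap of the highest or lowest library to its nearest neighbour was divided by the group's range and set against Dixon's limit of 0.71. Of 442 groups of values looked at, 43 lay above it, where chance gives about 1 in 20. The ratio stands in parentheses after each name.

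Glenn replicate 1 was the high library for Cd34 (0.745), Col18a1 (0.784), Cyp26b1 (0.783), Flna (0.726), Gja4 (0.850), Hbegf (0.716), Hspg2 (0.720), Igfbp3 (0.879), Igfbp4 (0.883), Kcnk2 (0.791), Lamc1 (0.916), Mki67 (0.814), Pfkfb3 (0.782) and Sparc (0.727). Lamc1 had 468 CPM there and 277 to 293 CPM in the other 4 Glenn libraries, and Igfbp4 had 547 CPM against 223 to 260 CPM. Glenn replicate 2 was the high library for Cldn5 (0.726), Ednrb (0.833), Foxf1 (0.713), Gata2 (0.728), Hyal3 (0.870), Klf2 (0.731), Klf4 (0.744), Tbx3 (0.758) and the total count (0.904). Sham replicate 3 was the high library for Cd53 (0.885), Cdh5 (0.721), Ephb4 (0.720), Lpl (0.723), Ptprc (0.944), Sema3c (0.761), Sema3g (0.735) and the summed lymphocyte markers (0.849). Ptprc had 18.9 CPM there and 1.51 to 2.49 CPM in the other 4 sham libraries.

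Other high values were those of Cacng3 in sham replicate 2 (0.787), Igfbp3 in sham replicate 2 (0.722), Myh11 in sham replicate 1 (0.742), Ptprc in Glenn replicate 4 (0.855), Rgs5 in sham replicate 2 (0.812), Smad6 in sham replicate 2 (0.722), Tacr1 in sham replicate 1 (0.791) and the total count in sham replicate 2 (0.711). Low values were those of Cacng3 in Glenn replicate 5 (0.807), Erg in sham replicate 4 (0.742), Nid2 in sham replicate 5 (0.821) and the number of genes with a count in Glenn replicate 1 (0.773).

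The Glenn effect on Rftn1 differed between the control diet and the mean of the other 2 diets by -0.61 on the log2 scale in edgeR's test of that difference. Its log2 change was -0.02 with the control, 0.35 with the deficient and 0.82 with the excess diet. With an RT1-CE16 term that test called 0 genes.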

How the results depend on the processing

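The count of genes changed on the control diet, 4023, lay within 1.5 times under other scaling, tools, filter and terms (3686 without a filter to 4380 with limma voom). Within libraries of 1 RT1-CE16 level, which leaves fewer samples, it was 2497 (high) and 1563 (low), and 993 genes were also changed at least 2-fold. Leaving out 1 library gave 3392 to 3957, and 2743 calls (68.2%) held whichever library was left out. The replicate numbers do not pair the libraries: deviations of same-numbered libraries correlated at 0.10, 0.14, -0.18, 0.05 and 0.17, and with the replicate block 4194 genes changed. The test of the control diet against the other 2 called 1 gene, 14 with DESeq2, 5 with limma voom, 0 with an RT1-CE16 term, with RT1-CE16 and sex terms, without the series term and with the replicate block, and 0 to 16 with 1 library left out. The cause was not tested. Of 185 named genes that changed, 153 kept the call under every alternative, 29 lost it only within 1 RT1-CE16 level, and 0 changed direction. Of 21 named genes that did not pass, 4 (Gja5, Lcp1, Pdgfrb and Pecam1) passed under at least 1 alternative. Precision was lowest under 1 CPM.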
